A study of Mus musculus with 6 samples.

Results

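In mouse germline stem cells (GSC) and in 4 pluripotent lines, 31103 cytosine positions were called more methylated than in a reference library in all 5 libraries alike. They were chosen by that criterion alone, that is, a positive methylation difference in GSC, iPSC lines 1 and 2 and gPSC lines 1 and 2. They make up 6.94% of the 448072 positions listed for any library and 14.7% of the 211853 positions called higher in GSC, and are called the shared positions here. The remaining 180750 positions called higher in GSC, which at least 1 line lacked, serve as the comparison set.

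The series profiled DNA methylation by reduced representation bisulfite sequencing in 6 samples of cultured mouse cells. All are of the OG2 strain, a transgenic strain with a green fluorescent protein reporter driven by upstream sequence of Pou5f1. GSC (1 line) are cultured cells of the male germline, iPSC (2 independent lines) are induced pluripotent stem cells made from GSC, and gPSC (2 independent lines) are pluripotent stem cells derived from the germline. The remaining sample is embryonic stem cells (ESC, 1 line). No culture age, passage or treatment is given in the labels, and each sample is 1 library, so a cell type rests on 1 or 2 lines. The reference is not named in the tables. ESC have no tables of their own and are therefore assumed to be that reference, and every statement of "higher" below is relative to it. Each difference is in percentage points of methylation, the tables list only called positions (a difference of at least 25 points either way), and neither levels nor read coverage are in them. The tables thus show positions higher than the reference and not highly methylated ones as such. Depth is unknown and no interval can be given for a single position.

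In mammals DNA is methylated mostly at the cytosine of CG dinucleotides (CpG), on both strands, and the pattern is copied at cell division. Gene starts in dense runs of CpG are usually unmethylated, while gene bodies and sequence between genes are usually methylated in differentiated cells. Embryonic stem cells, depending on the culture medium, can hold much lower methylation across the genome, and a methylation pattern that stays in a reprogrammed line from its cell of origin is often called epigenetic memory. Reduced representation sequencing cuts DNA at CCGG and reads fragment ends, so neighbouring positions are read by the same molecules and their values are not independent.

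Most shared positions lay outside gene starts, but those in a RefSeq promoter window (250 bases before to 50 after a start, GRCm38.p6) are where the base sequence can be shown. Of all 30142 listed positions in such windows 99.9% were at a CpG, and bases elsewhere were not checked. All 332 shared positions that fell in such a window were the C (132) or the G (200) of a CpG on the plus strand, so each of these is 1 strand of 1 CpG. They lay in 215 of 32851 windows (0.654%), of 205 genes. The 4 windows printed next hold 6 or more shared positions each and show the forms these took: the Elovl2 and Egr4 windows, where positions on the other strand were called lower, and the Odf2l and Btbd18 windows, with at most 1 called-lower position. Each is given 5′ to 3′ on the gene's strand, with the CpGs that hold a shared position in capitals.
Elovl2: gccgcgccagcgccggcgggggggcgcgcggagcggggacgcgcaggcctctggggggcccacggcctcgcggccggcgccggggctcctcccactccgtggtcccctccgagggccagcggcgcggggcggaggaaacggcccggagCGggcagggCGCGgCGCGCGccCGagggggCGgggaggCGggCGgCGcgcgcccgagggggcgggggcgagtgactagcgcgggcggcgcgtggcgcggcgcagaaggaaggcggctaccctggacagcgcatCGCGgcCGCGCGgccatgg
Egr4: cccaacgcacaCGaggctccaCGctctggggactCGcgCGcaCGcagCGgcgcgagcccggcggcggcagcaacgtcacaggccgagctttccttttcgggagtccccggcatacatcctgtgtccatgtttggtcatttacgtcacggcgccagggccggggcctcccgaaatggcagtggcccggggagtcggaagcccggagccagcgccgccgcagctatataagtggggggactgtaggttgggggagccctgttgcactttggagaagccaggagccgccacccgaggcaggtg
Odf2l: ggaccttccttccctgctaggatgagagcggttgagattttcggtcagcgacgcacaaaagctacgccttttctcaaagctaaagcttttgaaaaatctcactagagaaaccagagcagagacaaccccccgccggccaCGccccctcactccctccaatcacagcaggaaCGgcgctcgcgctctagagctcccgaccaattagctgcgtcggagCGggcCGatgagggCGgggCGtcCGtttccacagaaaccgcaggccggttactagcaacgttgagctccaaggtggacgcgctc
Btbd18: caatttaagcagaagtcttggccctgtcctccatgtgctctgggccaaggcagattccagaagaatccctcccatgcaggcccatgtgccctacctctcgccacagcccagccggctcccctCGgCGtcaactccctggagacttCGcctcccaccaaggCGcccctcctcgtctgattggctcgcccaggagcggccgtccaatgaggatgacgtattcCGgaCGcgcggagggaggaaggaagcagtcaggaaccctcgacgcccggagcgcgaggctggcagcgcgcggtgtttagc
The Elovl2 window is chr13:41220354-41220653 on the minus strand and has 16 shared positions among 56 CpGs. The Egr4 window is chr6:85513540-85513839 on the minus strand, with 6 among 30 CpGs. The Odf2l window is chr3:145118339-145118638 on the plus strand, with 7 among 25 CpGs, and the Btbd18 window is chr2:84658829-84659128 on the plus strand, with 6 among 23 CpGs.

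Elovl2, which encodes an elongase of very long polyunsaturated fatty acids, had the largest cluster of shared positions, 20 within chr13:41220328-41220505 at its start. The mean difference over these positions was 32.3 points in GSC, 57.0 and 40.03 for iPSC 1 and 2, and 38.7 and 35.3 for gPSC 1 and 2, with an SD over positions of 1.54 to 2.27. All 4 lines were above GSC, and GSC minus the mean of the lines was -10.5 points. For 19 of the 20, a position 1 bp away was called lower in every library, and the called-lower positions within 50 bp had means of -33.0, -56.1, -39.5, -39.8 and -34.9 in the same order, close in size to the called-higher ones. In the printed window all 16 shared positions were on 1 strand, at the G of the CpG in plus-strand coordinates, and the 15 positions called lower in all 5 libraries were at the C. Methylation at a CpG is normally alike on both strands. Here the strands had differences of nearly equal size and opposite sign in all 5 libraries, and the source of this was not tested.

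The same strand split was found at several other genes. In the Egr4 window (Egr4 encodes a zinc-finger transcription factor of the early growth response family) the 6 shared positions were all at the C and the 10 called lower in at least 1 library all at the G; the shared means were 25.01 points in GSC, 47.4 and 35.7 for iPSC 1 and 2, and 38.1 and 38.3 for gPSC 1 and 2. All 6 GSC values in the Egr4 window were 25.01 points, just above the minimum of 25 points for a listed position. In the Rps10 window, of a ribosomal protein gene, 8 shared positions were at the G and 8 called-lower ones at the C. In Sall3, a zinc-finger factor gene on chromosome 18, 12 of 12 shared positions had a called-lower position 1 bp away; its means were 60.03 points in GSC, 32.6 and 54.6 for iPSC 1 and 2, and 57.8 and 38.2 for gPSC 1 and 2. These clusters are therefore not read here as regions of higher methylation.

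Odf2l and Btbd18 differed from that form. In the Odf2l window (Odf2l encodes a centriole protein), the 7 shared positions were all at the C, none had a called-lower neighbour on the other strand, and the means were 77.7 points in GSC, 81.9 and 55.2 for iPSC 1 and 2, and 64.7 and 53.3 for gPSC 1 and 2. Within each library the 7 values spanned little, 77.0 to 77.8 in GSC and 52.5 to 54.2 in gPSC 2. Only iPSC 1 was above GSC. With 0 shared positions at the G, no CpG of the Odf2l window was shared on both strands. The absence of called-lower neighbours thus does not show that the strands were alike there. In the window of Btbd18, a gene needed in male germ cells whose start lies head to head with that of Ctnnd1, the 6 shared positions had means of 70.1 points in GSC, 57.9 and 48.99 for iPSC 1 and 2, and 45.1 and 54.2 for gPSC 1 and 2, so all 4 lines were below GSC, and 1 of the 6 had a called-lower position 1 bp away.

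Over all shared positions such strand splits were a minority. Where a position 1 bp from a shared one was listed (the other strand of its CpG or, within CGCG, of the next CpG), it was called lower in 602 cases and higher in 1721 in GSC (25.9% lower). The share called lower was 46.8%, 44.0%, 37.9% and 38.2% in iPSC 1, iPSC 2, gPSC 1 and gPSC 2. Over all listed pairs 1 bp apart the share of opposite calls, from GSC to gPSC 2, was 63.3%, 83.7%, 87.0%, 86.7% and 79.3%. A called-lower position within 1 bp, in any library, was found for 1066 shared positions (3.43%) against 11.1% of the other positions called higher in GSC. Both positions were shared in 247 such pairs, and the spread within them corresponds to an SD of 10.1 to 11.3 points for a single position, depending on the library.

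The difference was smaller in each line than in GSC. The median difference over the 31103 positions was 76.7 points in GSC (quartiles 59.7 and 89.8), 60.1 in iPSC 1 (45.8 and 75.4), 59.7 in iPSC 2 (45.7 and 75), 66.4 in gPSC 1 (51.4 and 80.8) and 63.6 in gPSC 2 (49.6 and 78.1). GSC was thus the highest, the gPSC lines came next and the iPSC lines were lowest, with quartiles that overlapped throughout. The criterion used these same values, so they describe the positions and carry no test. The other positions called higher had medians of 62.5, 46.0, 55, 52.7 and 46.7 points in the same libraries. Since no difference can exceed 100 points, the reference level at a shared position was at most 20.8% at the median (quartiles 8 and 37.0). At 18 positions the difference was 100 points in all 5 libraries.

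**Figure D1:**
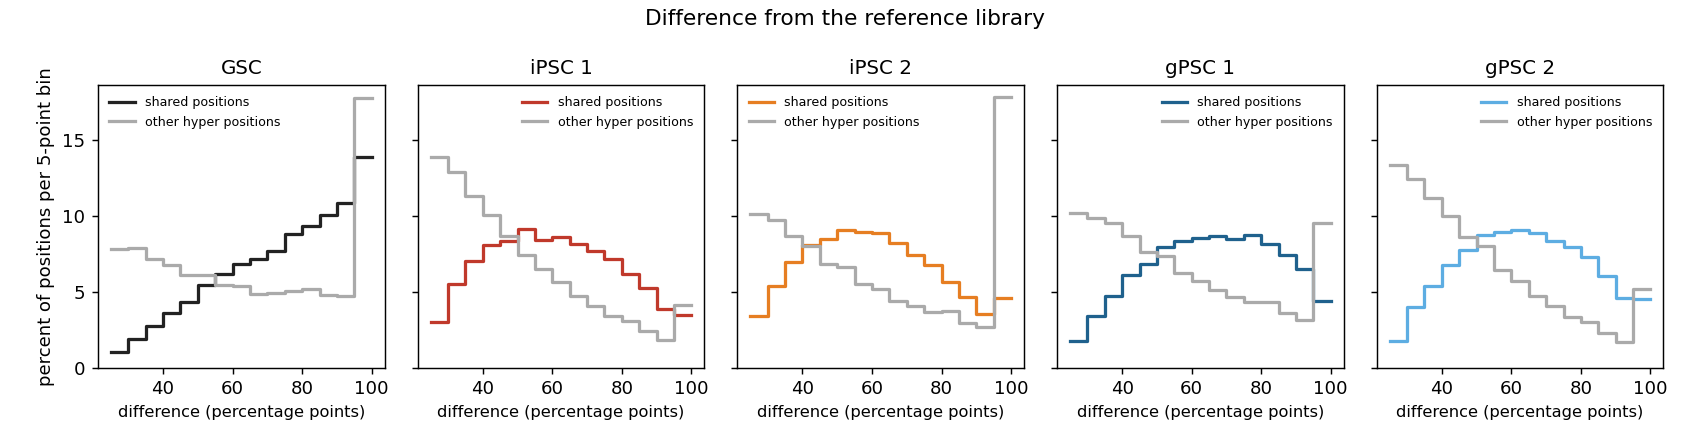
Share of positions (percent, in bins of 5 points) by their difference from the reference (percentage points), 1 panel per library; coloured lines are the 31103 shared positions and grey lines the other positions called higher in that library. The shared positions sit further right in GSC (median 76.7 points) than in iPSC 1 (60.1), iPSC 2 (59.7), gPSC 1 (66.4) or gPSC 2 (63.6).

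Positions near the criterion's limit were few. At 2433 shared positions (7.82%) the smallest of the 5 differences was under 30 points, and there the median was 47.1 points in GSC and 34.9 over the lines. Just outside, 31699 positions were called higher in GSC and in 3 of the 4 lines, with a median of 68.2 points in GSC and 53.2 over the 3 lines that listed them. The missing line was iPSC 1 at 9871 of these, iPSC 2 at 7998, gPSC 1 at 7042 and gPSC 2 at 6788; a position missing from a line's tables was either not called or not covered, which cannot be told apart. Single lines held more: of all positions called higher in GSC, 32.7% were called higher in iPSC 1, 35.5% in iPSC 2 and, for gPSC 1 and 2, 42.1% and 37.7%, against 26.4%, 29.4%, 30.1% and 31.1% of all listed positions. Of the GSC positions, 84313 (39.8%) were called higher in no line, 35517 (16.8%) in 1, 29221 (13.8%) in 2 and 31699 (15%) in 3.

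Subtracting a line's difference from that of GSC removes the reference if the same reference reads stand behind both, and gives the loss of methylation from GSC to that line. The median loss was 10.3 points in iPSC 1 (quartiles 2.27 and 21.6), 10.5 in iPSC 2 (2.08 and 21.5), 6.23 in gPSC 1 (0.609 and 13.8) and 8.10 in gPSC 2 (1.08 and 16.8). By kind of line it was 10.4 ± 0.123 points for the iPSC lines (SD, n = 2) and 7.16 ± 1.32 points for the gPSC lines (SD, n = 2). Both iPSC lines thus lost more than both gPSC lines at the median. The gap between the kinds was not seen everywhere: over clusters of 5 or more positions the loss was 5.75 points for iPSC and 5.32 for gPSC, and over the 247 pairs of shared positions 1 bp apart it was 2.5 and 4.06 points for iPSC 1 and 2, and 2.80 and 3.52 for gPSC 1 and 2. With 2 lines against 2 no test can reach a small p, and none was made for these kinds. The lines were below GSC at 80.3%, 80.1%, 77.0% and 78% of positions in the same order. A loss of over 25 points was present at 19.7%, 19.8%, 9.02% and 12.6%, and a gain of over 25 points at 0.875%, 0.891%, 0.981% and 1.04%. GSC are a single library, so its own deviation enters all 4 losses alike.

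**Figure D2:**
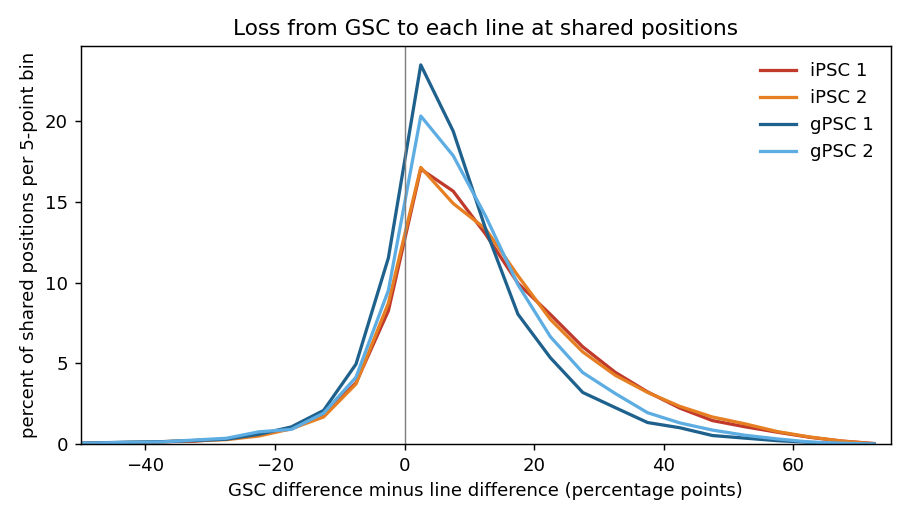
Loss from GSC to each line (GSC difference minus line difference, percentage points) against the share of the 31103 shared positions per 5-point bin, 1 curve per line. All 4 curves peak just right of 0, and those of iPSC 1 and iPSC 2 (medians 10.3 and 10.5) reach further right than those of gPSC 1 and gPSC 2 (6.23 and 8.10).

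Position by position the lines agreed in part. All 4 lines were below GSC at 17618 positions (56.6%) and all 4 above it at 1672 (5.38%), and a loss of over 25 points in all 4 was found at 1128 (3.63%). All 5 libraries lay within 10 points of each other at 4899 positions (15.8%). The difference was at least 50 points in all 5 libraries at 16479 positions (53%) and at least 75 at 4075 (13.1%). Both iPSC lines were below both gPSC lines at 8532 positions (27.4%) and above both at 2496 (8.02%). The median gap between the 2 iPSC lines was 8.04 points and between the 2 gPSC lines 6.18, while the means of the 2 kinds differed by 5.55 at the median, so the median gap between kinds was smaller than the gap between 2 lines of a kind (a mean of 2 lines varies less than a single line). The loss was larger where GSC was higher: for GSC differences of 75 to 100 points the median loss was 15.3, 15.5, 8.79 and 11.7 points (iPSC 1, iPSC 2, gPSC 1, gPSC 2), and for 25 to 50 points it was 1.56, 1.23, 0.899 and 0.844. The sorting used the GSC value that also enters the loss, and the minimum of 25 points in the lines limits the loss at low GSC values.

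The shared positions lay far from genes more often than the other positions called higher in GSC. In a gene lay 52.9% of them against 65.3%, and in a gene or within 2000 bp of one 56.5% against 70.6%, where all listed positions had 73.9%. Chromosome 18, for which no starts were given, is left out of distances to a start. The median distance was 30251 bp against 17155 bp. Within 1 kb of a start lay 1382 shared positions (4.60% against 13.7%), from 1 to 10 kb 5919 (19.7% against 24.7%), from 10 to 50 kb 11520 (38.3% against 35.6%), from 50 to 100 kb 4305 (14.3% against 11%) and beyond 100 kb 6949 (23.1% against 15%). Gene starts were thus the place where positions called higher in GSC were least often shared. These counts are not tested, because positions read together are not replicates and the set was chosen from the same calls.

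In the authors' own feature column, 2232 shared positions (7.18%) were marked promoter, 1270 (4.08%) exon, 6461 (20.8%) intron and 21140 (68.0%) had no mark. Among the other GSC positions the shares were 15.7%, 4.93%, 20.6% and 58.8%. Read the other way, 7.30% of the promoter positions called higher in GSC were shared, against 12.5% in exons, 14.8% in introns and 16.6% without a mark. The column covers genes of 1 strand mostly: it marked 88.2% of positions in plus-strand genes and 19.5% of those in minus-strand genes, so its shares understate the genic part. The lower share of promoter positions was present at every level of the authors' p-value for GSC: from the weakest to the strongest of 5 classes it was 1.28%, 3.85%, 8.69%, 15.8% and 18% for promoters and 2.29%, 8.29%, 19.4%, 29.0% and 30.1% elsewhere. The share rose with the strength of the call in both, and the median −log10 p in GSC was 12.3 at shared positions against 5.53 at the others.

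Loss differed with distance from a gene start. Within 1 kb of a start the mean loss over the 4 lines had a median of 5.88 points, against 11.4 from 1 to 10 kb, 9.71 from 10 to 50 kb, 8.81 from 50 to 100 kb and 7.79 beyond 100 kb. The median GSC difference within 1 kb was 61.1 points, below the 76.5 to 77.7 of the other distance classes, and 12 of the 16 clusters at promoter windows had a called-lower position within 50 bp. The part of either in the lower loss was not tested.

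The chromosomes carried the shared positions unevenly. On the autosomes 29270 of 204587 positions called higher in GSC were shared (14.3%), from 9.58% on chromosome 8 to 17.7% on chromosome 3. On X it was 1746 of 6912 (25.3%) and on Y 87 of 343 (25.4%), and 0 of 11 on the mitochondrial genome. Each line showed the X excess: of the GSC positions on X, 40.9% were called higher in iPSC 1, 48.0% in iPSC 2 and, for gPSC 1 and 2, 59.4% and 48.7%, against 32.4%, 35.1%, 41.5% and 37.3% on autosomes. X was above the autosomes in each class of GSC p-value as well, with 4.38%, 14.2%, 28.7%, 41.9% and 48.1% against 2.05%, 7.29%, 17.4%, 26.9% and 28.1%. Among positions with a difference of 100 points, where a stronger p goes with more reads, the median −log10 p on X was 4.50 in GSC and 4.29, 4.06, 4.50 and 4.39 in the lines, above the 3.81 and 3.48, 3.78, 3.48 and 3.30 of the autosomes in the same libraries; the part of depth in the X share was not tested. The sex of the reference line and its X number are not in the sources used here, and their part in this was not tested.

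**Figure D3:**
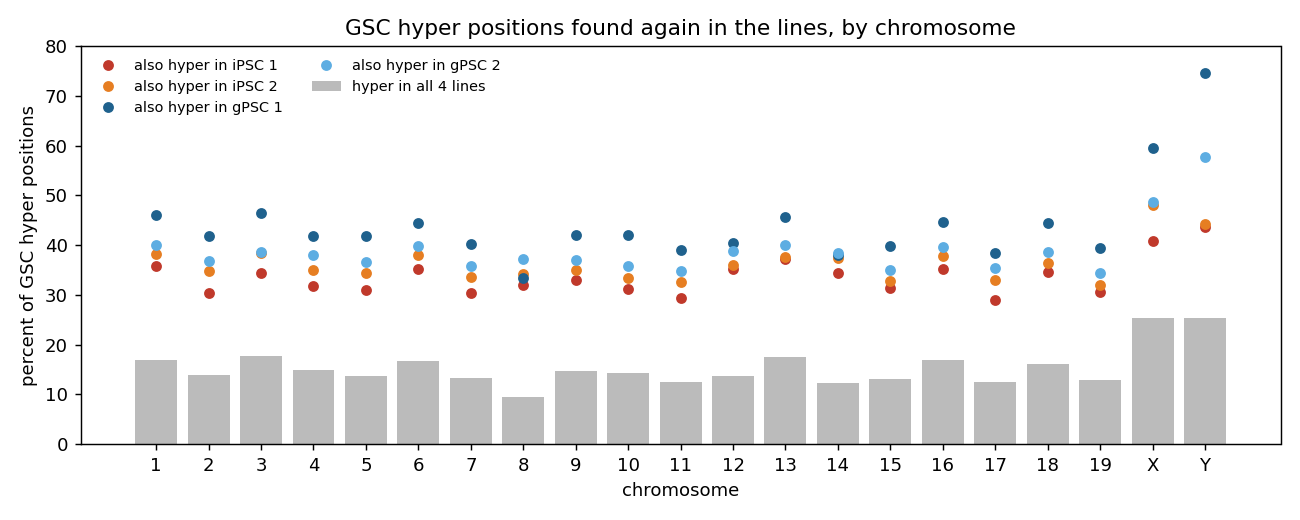
Share of positions called higher in GSC (percent) that were also called higher in each line (points) and in all 4 lines (grey bars), by chromosome. X (25.3%) and Y (25.4%) stand above every autosome (9.58% to 17.7%), and on chromosome 8 the point of gPSC 1 falls among those of the other lines.

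On X the median loss was 8.16 and 7.26 points for iPSC 1 and 2, and 4.20 and 5.78 for gPSC 1 and 2, against 10.5, 10.6, 6.36 and 8.27 on autosomes, so the order of the lines' kinds was kept and each loss was smaller. The low share on chromosome 8 moved with 1 line. There gPSC 1 held 33.3% of the GSC positions, against 41.5% over the autosomes, while the other lines held 32.0%, 34.2% and 37.3%. Without the condition on gPSC 1 the shared share of chromosome 8 was 16.9%, against 17.7% over the autosomes. Chromosome 14 was alike, with 12.3% shared, 38.0% held by gPSC 1 and 18.7% shared without the condition on gPSC 1.

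Grouped by gaps of at most 100 bp, the shared positions formed 22971 groups, 18883 of them single positions. Clusters of at least 5 positions numbered 542 and held 3407 positions (11%), with a median span of 117 bp. Of these, 330 overlapped no gene, 283 were over 10 kb from the nearest gene and 16 touched a promoter window. All 4 lines were below GSC in 355 clusters and above it in 29. The median loss over the 526 clusters away from promoter windows was 5.89 points, while the 16 at promoter windows had a median of -1.83, of which the 12 with a called-lower position within 50 bp had -5.66 and the 4 without had 7.60.

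Most of the other large clusters lay away from gene starts. A cluster in Gm19272, a long non-coding RNA gene, held 16 positions at chr6:7333065-7333394, with means of 85.2 points in GSC, 80.5 and 79.2 for iPSC 1 and 2, and 82.7 and 76.5 for gPSC 1 and 2. In Esr1, the estrogen receptor gene, an intronic cluster of 13 positions at chr10:4837550-4837915 had means of 70.0, 69.4, 54.2, 67.4 and 63.0 in that order, and in Fshr, the follicle-stimulating hormone receptor gene, 12 positions at chr17:89153890-89154274 had 71.0, 64.9, 62.9, 70.0 and 63.9. The lowest library was gPSC 2 in Gm19272 and iPSC 2 in Esr1 and Fshr, and GSC was the highest in each. In Stk3, a kinase of the Hippo pathway, 11 positions at chr15:35117494-35117721 had 88.1, 83.1, 63.4, 78.8 and 53.6, and here iPSC 2 and gPSC 2 stood below the other 3 libraries. In S100a7l2, of the S100 calcium-binding family, 14 positions had 70.2, 64.6, 65.1, 68.6 and 66.0.

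Several further clusters of this size overlapped no gene. The one of 17 positions on chromosome 7, 94737 bp from Gm36865, had means of 57.9 points in GSC and 58.6, 54.7, 56.8 and 56.4 in the lines, so the 5 libraries were nearly level. The one of 16 positions 15206 bp upstream of Vmn1r40, a vomeronasal receptor gene, had 44.2 in GSC and 42.0, 40.5, 42.0 and 41.3 in the lines. The clusters of 15 positions near Gm35008 and A530072M11Rik had 76.1 and 56.5 points in GSC, and that of 13 positions near Cox7b2 had 59.3; in all 3 the lines were below GSC. At the start of Gm36428, within Apold1, 12 positions had means of 40.1 points in GSC and 52.7, 46.7, 53.7 and 31.1 in the lines, and called-lower positions lay among them.

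Pawr, which encodes a pro-apoptotic protein, was the largest cluster near a gene start without a called-lower neighbour. Its 15 positions lie at chr10:108332538-108332630, 395 bp from the start of Pawr, and also within the non-coding gene Gm40755. The GSC values ran from 25.7 to 37.8 points, with a median of 36.6, while iPSC 1 ran from 51.7 to 60.4, iPSC 2 from 45.5 to 52.2, gPSC 1 from 43.9 to 48.8 and gPSC 2 from 42.8 to 52.6. Every value of every line was therefore above every value of GSC, the reverse of the usual order. GSC minus the mean of the lines was -17.1 points. The 15 positions lie within 93 bp and many have the same value in a library, so they are not independent measurements. No 2 of them lie 1 bp apart, so none was shared together with a position on the other strand of the same CpG. An unlisted position was either not called or not covered, so whether the strands were alike there is not known.

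The cluster with the largest loss was in an intron of Banp, which encodes a nuclear matrix protein that binds CpG-containing DNA motifs. Its 11 positions lie at chr8:121973975-121974066, close enough to be read together, so their values are not independent measurements. GSC values ran from 98.4 to 100 points, those of iPSC 1 from 60.8 to 80.4, iPSC 2 from 50.8 to 75.4, gPSC 1 from 42.6 to 67.1 and gPSC 2 from 61.5 to 88.9, so no line value reached the lowest GSC value, and the means of 99.9, 68.4, 59.0, 51.6 and 75.6 gave a mean loss of 36.2 points. Next came the non-coding genes C030047K22Rik, with 6 positions and a mean loss of 36.1 points, and Gm30369, with 5 positions and 34.3. A cluster of 6 positions 42942 bp from Gm35917 had a mean loss of 31.9 points, with 1 called-lower position within 50 bp. On X, 7 positions 375156 bp upstream of Pou3f4, a POU transcription factor gene, had means of 76.6, 52.2, 40.3, 46.1 and 43.7, a mean loss of 31.1. In these clusters all 4 lines were below GSC.

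Clusters with higher values in the lines than in GSC were also found. The largest gain was at a cluster of 5 positions on X, 8380 bp downstream of Acot9, an acyl-CoA thioesterase gene, with means of 39.0 points in GSC, 63.1 and 64.2 for iPSC 1 and 2, and 81.2 and 76.9 for gPSC 1 and 2. Its 5 neighbouring GSC values, which are not independent, ran from 31.5 to 43.3, and the lowest line value was 45.3. Within 50 bp of the cluster lay 1 called-lower position. GSC minus the mean of the lines was -32.3 points there, -29.1 at a cluster near 8430437L04Rik, -20.0 at one near Gm39035 and -18.4 at one near Gm46429.

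**Figure D4:**
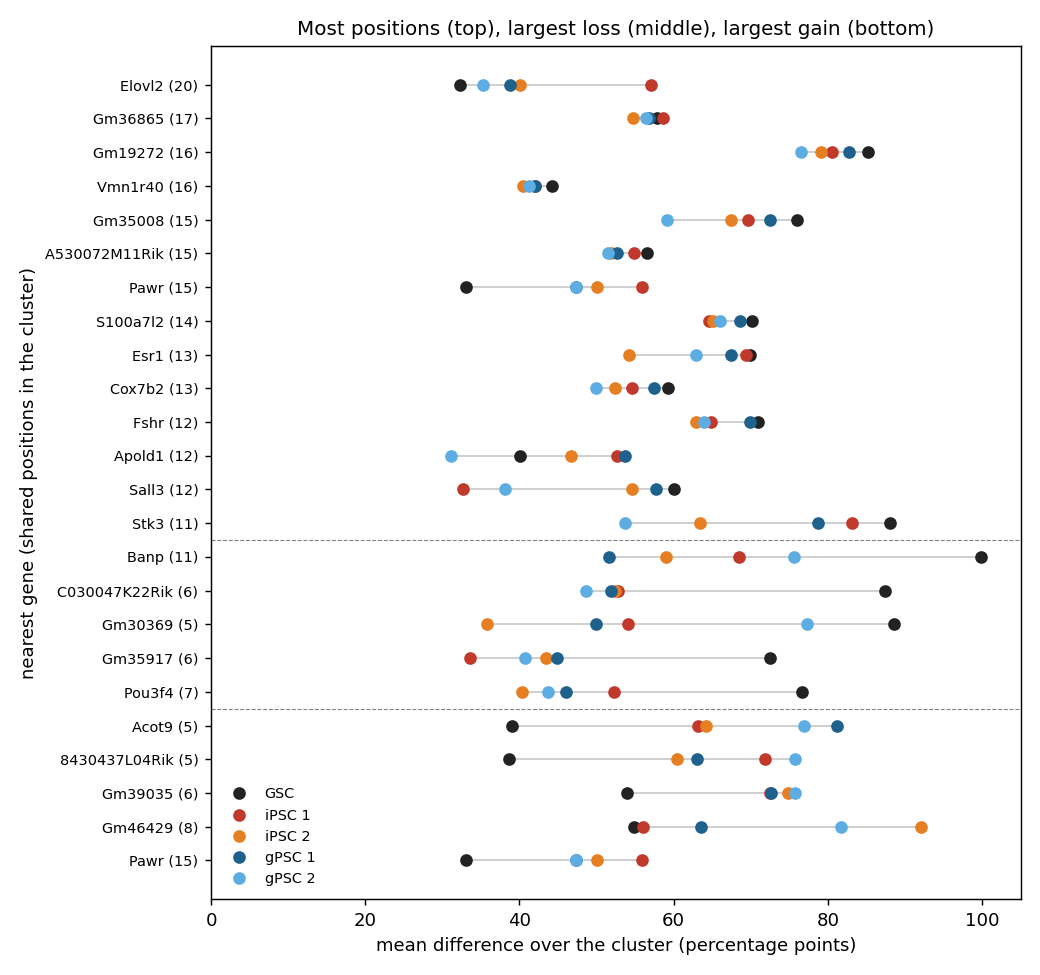
Mean difference over a cluster (percentage points) in each library for 14 of the 15 clusters with the most shared positions (top), the 5 with the largest mean loss (middle) and the 5 with the largest mean gain (bottom, where Pawr appears again); labels give the nearest or overlapping gene and the number of positions. GSC lies right of all lines in the middle block (99.9 points at Banp) and left of all lines in the bottom block.

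Many clusters shared a spacing of positions. Among the 8132 gaps of up to 100 bp between neighbouring shared positions, 64 bp made up 3.04%, against 0.369% of 81914 gaps between the other GSC positions, and 14 bp made up 5.26% against 2.19%. A trio of shared positions spaced 64 and 14 bp apart was found at 198 loci, 107 in 1 orientation and 91 in the other, on 20 chromosomes, with 20 loci on X. Trios shifted by 1 bp were counted as separate loci, as in 2610307P16Rik and Chst9. Of these loci 141 were in no gene and 57 in one. The 180750 other GSC positions held 242 such trios, and the 5214 positions called higher in the 4 lines but not listed in GSC held 2. Measured from the middle position, shared positions recurred at -107 bp (47 loci), -83 (122), -68 (101), -66 (144) and 49 (53), and no other offset within 160 bp was shared by more than 10 loci. With the trio itself, 1061 shared positions lay at these offsets. Among shared positions pairs 208 bp apart were also frequent, 239 (7.68 per 1000). The others had 435 at that distance (2.41 per 1000), near their 430 at 209 bp. The others had more pairs at 212 bp, 894 (4.95 per 1000), where the shared positions had 37 (1.19 per 1000). The median over distances of 180 to 240 bp was 20 pairs for the shared and 372 for the other positions.

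The spacing was present in 164 of the 542 clusters and in 9 of the 15 largest, the dense Pawr cluster included. Of the 164, 119 overlapped no gene, none touched a promoter window and 2 had a called-lower position within 50 bp. In the Gm19272 cluster the gaps 14, 64, 2, 2, 7, 8 and 24 bp occurred and, after a gap of 87 bp, occurred again in the same order, 208 bp on. Over the 198 loci the median of the locus means was 75.8 points in GSC, 70.4 and 61.9 for iPSC 1 and 2, and 70.6 and 63.8 for gPSC 1 and 2. The median loss was 4.23, 10.5, 4.66 and 8.28 points in the 4 lines, so at these loci iPSC 1 and gPSC 1 stayed closer to GSC than iPSC 2 and gPSC 2, a different order from that over all shared positions. All 4 lines were below GSC at 132 loci and above it at 6.

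**Figure D5:**
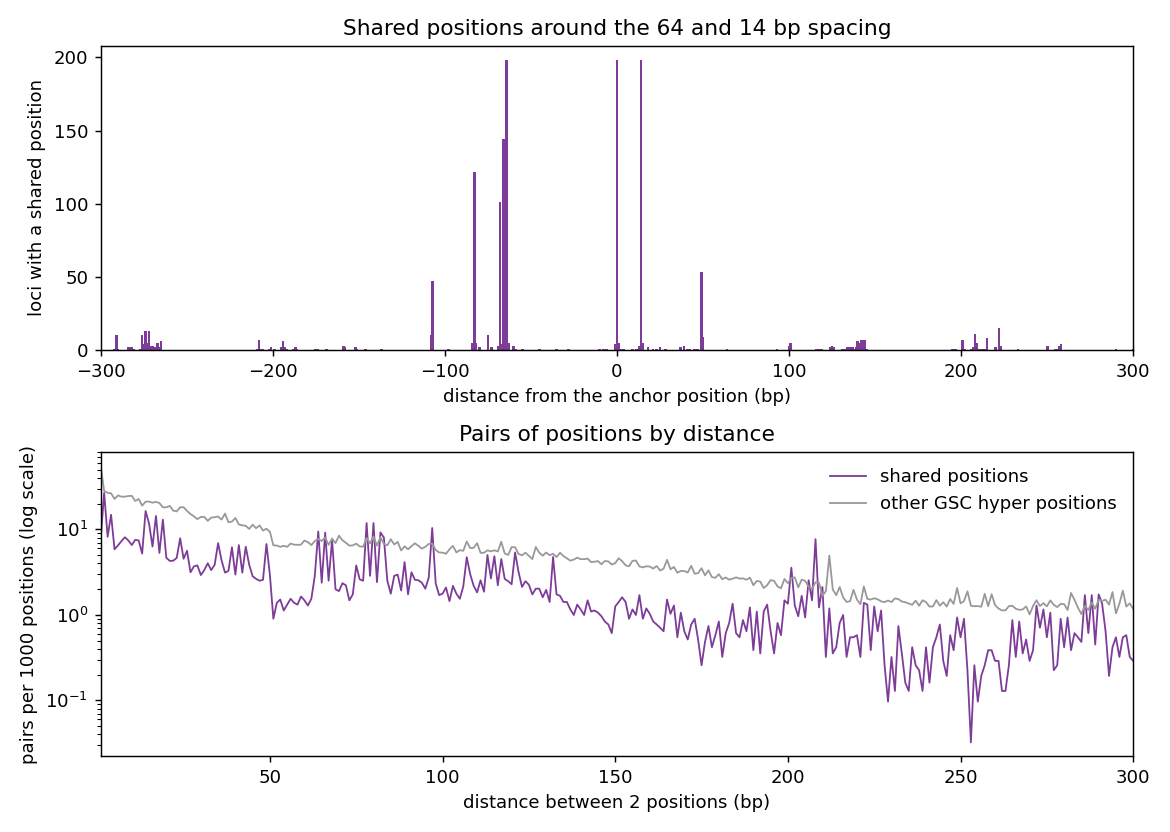
Top: number of loci with a shared position at each distance (bp) from the middle position of the trio spaced 64 and 14 bp, over 198 loci; bottom: pairs of positions per 1000 positions (log axis) by the distance between them (bp), for shared and for other GSC positions. Bars stand at -107, -83, -68, -66, -64, 0, 14 and 49 bp. Beyond the short distances the curve of shared pairs has a peak at 208 bp (7.68 per 1000) and that of the others at 212 bp (4.95 per 1000).

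No genome sequence was used here, but 3 of the 32851 promoter windows (0.00913%) hold CpGs at 5 of the 6 most frequent offsets with at most 10 CpGs between the outermost offsets, limits set after seeing the data. The stretches of 120 bases in the windows of Gm36816 and A230004M16Rik, non-coding genes on different chromosomes, are printed, with the CpGs at the spaced offsets in capitals. The first has CpGs at the trio and at 2 more offsets; the second lacks the CpG at the middle position of the trio and thus does not hold it. The third, in the window of Cnnm1, meets the same limits with a largely different sequence and is not printed.
Gm36816: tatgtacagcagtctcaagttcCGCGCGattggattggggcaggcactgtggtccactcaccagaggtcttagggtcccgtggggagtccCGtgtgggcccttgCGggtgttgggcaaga
A230004M16Rik: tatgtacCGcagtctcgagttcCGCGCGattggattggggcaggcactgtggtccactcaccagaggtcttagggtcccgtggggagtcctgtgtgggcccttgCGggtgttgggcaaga
The first is chr6:67009104-67009223 and the second chr11:41710120-41710239, both on the plus strand. They are identical at 117 of 120 bases (97.5%). Neither holds a listed position, so they are not members, and whether the 198 loci share this sequence was not tested.

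By gene, 8427 protein-coding or long non-coding genes had a shared position in them or within 2000 bp, and 2258 of 34627 (6.52%) had 3 or more. Many of the leading genes are long, and a count is not corrected for length or for how many CpGs were read. Filip1, which encodes a filamin-interacting protein, had the most, 44, with means of 69.0 points in GSC, 66.7 and 57.3 for iPSC 1 and 2, and 64.8 and 56.5 for gPSC 1 and 2. Stk3, Csmd2 and Gpc6, a glypican gene, had 31 each. S100a7l2, a gene of only 19293 bp, had 28 in it or within 2000 bp of it. Its means were 76.1 points in GSC and 73.7 to 74.6 in the lines. Its mean loss of 2.05 points was the smallest among the 20 genes with most shared positions apart from Elovl2. Camta1, which encodes a calmodulin-binding transcription activator, had 28 with the largest mean loss of the 20 (17.0 points), 77.3 points in GSC and 58.8, 56.7, 64.9 and 60.6 in the lines.

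Of the other genes among these 20, Chst9, a sulfotransferase gene, had 27 shared positions, Prdm16, a zinc-finger regulator of brown fat, had 26, Wwox, a tumour suppressor gene at a fragile site, had 24, and Shank2, a scaffold of excitatory synapses, had 23. Il1rapl1 on X, a synaptic adhesion gene, had 22, with 67.8 points in GSC and 63.3, 61.7, 66.2 and 63.4 in the lines. Agbl1 had 21, and Cntnap2, Mast4, Acacb, Tmem132c, Cux2 and Cacna1c had 20 each, as did Elovl2; Skap1, an adaptor of T cells, had 19. In these 20 genes all 4 lines were below GSC, with the exception of Elovl2.

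Gene lists relevant to germ cells and pluripotency are read against the 8.72% of protein-coding genes that had 3 or more shared positions and the 28.9% that had at least 1. Of 30 germline genes such as Dazl, Tdrd1 and Tex14, which act in meiosis and in the silencing of transposons in male germ cells, 12 had a shared position and 0 had 3 or more. Dazl, an RNA-binding protein of germ cells, had 1, with 91.8 points in GSC, 94.3 and 76.7 for iPSC 1 and 2, and 87.0 and 92.9 for gPSC 1 and 2. Of the 12, all 4 lines were below GSC in 7, as in Tex14 of the bridges between germ cells (2 positions, 68.9, 37.9, 42.8, 51.2 and 43.6), and no line was below it in 1, Smc1b, a cohesin subunit of meiosis (28.1, 30.8, 35.6, 43.3 and 32.2). Of 19 genes of spermatogonial stem cells 3 had 3 or more (15.8%). Zbtb16, a transcription factor that maintains these cells, had 15, with means of 72.6 points in GSC, 60 and 62.5 for iPSC 1 and 2, and 64.7 and 63.5 for gPSC 1 and 2. Gfra1, the receptor for the niche factor GDNF, had 10, with 61.7, 53.1, 57.1, 61.1 and 58.1, and its signalling partner Ret had 5, with 79.3, 59.0, 54.6, 55.0 and 67.3. In Zbtb16, Gfra1 and Ret all 4 lines were below GSC. Of the 11 genes of this list with a shared position, all 4 lines were below GSC in 7, some lines in 1 and no line in 3. The 3 were Id4, Bcl6b and Pou3f1, with 1 shared position each.

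Of 30 pluripotency genes 2 had 3 or more shared positions (6.67%). Pou5f1, the central transcription factor of pluripotent cells, had 3, with means of 90.6 points in GSC, 45.4 and 40.8 for iPSC 1 and 2, and 51.5 and 44.0 for gPSC 1 and 2 and an SD over positions of 14.1, 8.79, 7.74, 3.28 and 4.47. Another 74 positions in or near Pou5f1 were called higher in GSC and were not shared. The reporter of the OG2 strain carries upstream sequence of Pou5f1, and reads from the reporter and from the gene cannot be told apart. Esrrb, an orphan nuclear receptor of naive pluripotent cells, had 4, with 79.0, 59.3, 59.9, 67.1 and 57.5, besides 50 positions that were not shared. Prdm14, which represses methylation in naive cells, had 1, with 83.4 points in GSC and 39.4, 29.9, 25.5 and 41.6 in the lines.

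Among the 23 genes at maternally methylated imprints, 5 had 3 or more shared positions (21.7%). A maternally methylated imprint is a methylation mark from the oocyte that stays on 1 parental copy and that male germ cells erase. Whether each listed gene itself carries such a mark was not checked here. Trappc9 had 13, with means of 69.6 points in GSC, 55.0 and 54.0 for iPSC 1 and 2, and 57.8 and 58.3 for gPSC 1 and 2. Kcnq1 had 14, with 61.2, 59.4, 57.7, 57.9 and 64.2, and gPSC 2 was above GSC there. Sfmbt2 had 9, with 87.1, 83.8, 76.2, 82.2 and 70.9, Peg10 had 5 and Herc3 had 4. These are counts over whole genes and not over the imprinting control regions, which were not delimited here. Of 6 genes at paternally methylated imprints 4 had a shared position and 0 had 3 or more.

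Of 18 genes that write, read or remove methylation 4 had 3 or more (22.2%). Dnmt1, the maintenance methyltransferase, had 6, with means of 81.4 points in GSC, 66.2 and 70.2 for iPSC 1 and 2, and 73.4 and 84.7 for gPSC 1 and 2, and Tet3, which oxidises methylcytosine, had 7, with 84.7, 67.1, 72.8, 73.5 and 70.9. Uhrf1, which brings Dnmt1 to replicated DNA, had 3, with 69.8, 39.9, 47.0, 60.8 and 54.9. Dnmt3a, a de novo methyltransferase, had 3, with 61.7, 51.4, 58.4, 62.9 and 59.7. Of 48 regulators of neural and other lineages 4 had 3 or more (8.33%), namely the mesoderm factor T (10), Pax5 of B cells (10), Pax2 of kidney and brain (9) and Tbx5 of the heart (3). In these 4 genes the 4 lines were below GSC. Of the 13 genes of this list with a shared position, all 4 lines were below GSC in 7 and some lines in 4. No line was below it in 2, Neurog3 and Lhx2, with 1 shared position each.

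Of 39 Hox genes, which pattern the body axis, 2 had 3 or more (5.13%), Hoxd10 and Hoxd11, and both through the same 3 positions, with means of 32.7, 28.1, 30.6, 31.9 and 38.2 points in GSC, iPSC 1, iPSC 2, gPSC 1 and gPSC 2. Of 57 protocadherin genes 12 had 3 or more (21.1%). All 12 were Pcdha genes, whose transcripts overlap, and they share the same 6 positions, with means of 65.4, 52.2, 59.5, 65.1 and 64.5 points, so this count is that of 1 place. Markers of other cells that such cultures could hold were also counted. Of 12 genes of feeder fibroblasts 5 had a shared position and 0 had 3 or more, and of 13 genes of testis somatic cells 3 had 3 or more (23.1%), namely Wt1 (4), Nr5a1 (3) and Cyp11a1 (3). With lists of this size a share moves by several percent for each gene, and none of these lists is called different from the background.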

How the data were processed

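DNA was isolated with a column kit, per the labels' protocols, and profiled by reduced representation bisulfite sequencing in 6 samples. Tools named in the submitters' processing notes are methylKit, GATK, Bowtie2 and Bismark, with the builds GRCm38 and mm10; no coverage minimum is given there. Of the 6 samples 5 have tables, 10 in all, of positions higher or lower than the reference. The authors deposited a p-value and a q-value for each position and its methylation difference in percent (percentage points, negative in the lower tables). Tested on the tables, every q-value was at most 0.01 and every difference at least 25 points in size. Depth is unknown.

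Shared positions were matched by chromosome and position (pandas 2.3.3, numpy 2.4.6, python 3.11.15; plots with matplotlib 3.10.9). Clusters had at least 5 shared positions with gaps of at most 100 bp. Genes came from a RefSeq table of GRCm38.p6 with 34627 protein-coding and long non-coding genes, matched within 2000 bp, and promoter windows from RefSeq (32851, none on chromosome 18). Loss is the GSC difference minus that of a line. The steps were tested on simulated data. Values named in the text are those of the 15 clusters and 20 genes with most shared positions (predicted genes left out of the latter), the 5 clusters with the largest mean loss and the 5 with the largest gain, and list genes with at least 3 shared positions (1 of the 15 clusters is not reported here); Egr4, Rps10, Odf2l and Btbd18 and the list genes with 1 or 2 positions were chosen after their values were seen. The positions and the gene lists were chosen with earlier results of these data known. No test was made, because the criterion used every difference. Alternatives were a minimum of 40 points, leaving out positions near one of opposite direction, merging strands, other gaps and flanks, and leaving out each line.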

Additional observations from a re-analysis of the deposited data

How the results depend on the processing

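No paired analysis was possible because the values come from no test and each position was chosen from all 5 libraries. Paired here means a test that matches iPSC and gPSC lines by their number. The loss itself did compare GSC with each line at the same position. With at least 40 points in all 5 libraries there were 312 clusters in place of 542, the median loss in iPSC was 9.73 points in place of 10.4, the share of GSC positions that were shared was 18.7% on X and 10.4% on autosomes in place of 25.3% and 14.3%, and 54.4% of shared positions lay within 2000 bp of a gene in place of 56.5%. Without positions 1 bp from one of opposite direction the iPSC loss was 10.6 points and the gene share 55.4%; within 50 bp they were 10.6 points and 55.0%, with an autosome share of 13.3%. Taken as medians over clusters, the loss was 5.75 points in iPSC and 5.32 in gPSC. Clusters numbered 223 with gaps of at most 50 bp and 1831 with at least 3 positions. The gene share was 52.9% in genes only and 65.7% within 10000 bp. Leaving out 1 line at a time gave 37891 to 40974 positions, 705 to 731 clusters, X shares of 26.5% to 32.6%, autosome shares of 17.5% to 18.9%, gene shares of 57.2% to 58.4%, and, over the positions chosen again, losses of 10.1 to 10.5 points in iPSC (10.2 without gPSC 1) and 6.25 to 7.89 in gPSC. On the unchanged positions the losses of the remaining line are its own medians, 10.3 to 10.5 and 6.23 to 8.10. Over pairs of shared positions 1 bp apart the loss was 3.28 points in iPSC and 3.16 in gPSC. X stayed above the autosomes with at least 40 points, without positions within 50 bp of one of opposite direction, and without each line. For the other alternatives these shares were not computed. The spacing loci (198) numbered 145 to 226 over their alternatives, which, like those for X, the autosomes, the positions chosen again and the pairs, were chosen after seeing the data. Without coverage, no position's difference has an interval, and a position missing from a table may be unchanged or unread.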
